A study of Homo sapiens with 6 samples.

Results

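CHD7 is the gene that holds the highest-scoring LSD1 peak of vehicle-treated NCI-H526 cells. It was described here through all distinct ChIP-seq intervals that touch a window of 600 kb around it, chr8:61400000-62000000 on hg19. The window holds 142 of the 271093 intervals in the 4 lists analysed. They are 23 of 49597 LSD1 peaks with GSK552, 20 of 45188 LSD1 peaks with DMSO, 40 of 81619 H3K4me2 intervals and 59 of 94689 H3K4me1 intervals with DMSO. The CHD7 span was taken as about chr8:61591324-61780586, which is 189 kb. The gene was chosen by the score of its LSD1 peak with DMSO, so that peak's score, fold and rank with DMSO are a description and no test rests on them. LSD1 with GSK552 and the histone marks come from libraries that did not enter that choice.

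NCI-H526 is an established human line derived from a small cell lung cancer. Cells in the GSK552 group received 1 µM GSK2879552 for 24 hours, as the labels' treatment protocol was read, and cells in the DMSO group received the vehicle. LSD1 was mapped with and without the inhibitor, and its substrate marks were mapped with the vehicle. Each group was 1 library, so a difference between libraries has no replicate check and carries no p-value. The histone marks analysed here come from DMSO-treated cells, and the 2 input libraries were not used here.

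CHD7 encodes a chromodomain helicase, an ATP-driven enzyme that moves nucleosomes and is known for binding at enhancers that carry H3K4me1. Loss of a working copy causes CHARGE syndrome, a developmental disorder that affects tissues derived from the neural crest. LSD1 (KDM1A) removes methyl groups from mono- and dimethylated H3K4, and GSK2879552 inactivates it by binding its flavin cofactor. Enhancers commonly carry H3K4me1, while H3K4me2 marks both enhancers and the flanks of active gene starts. CHD7 is transcribed towards higher coordinates, so the lower end of its span is its start. By order on GRCh38, the nearest protein-coding genes are RAB2A before it and CLVS1 after it. Their positions on hg19 were not used here, so no interval outside the CHD7 span is assigned to a gene, and exons and introns were not used.

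LSD1 was found at 27 separate sites of the window, of which 16 were present in both LSD1 libraries, 7 with GSK552 only and 4 with DMSO only. A site is a stretch of overlapping LSD1 peaks from either list, and each of the 16 shared sites held 1 peak of each list. The CHD7 span held 12 sites, the stretch before it 7 and the stretch after it 8. Of the GSK552 peaks, 16 of 23 (69.6%, 95% Wilson interval 49.1 to 84.4%) were overlapped by a DMSO peak, against 58.1% over the whole GSK552 list. Of the DMSO peaks, 16 of 20 (80%, 58.4 to 91.9%) were overlapped by a GSK552 peak, against 63.2% over the whole DMSO list. Both values for the whole lists lie inside the window's intervals, which cover counting error only.

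**Figure D1:**
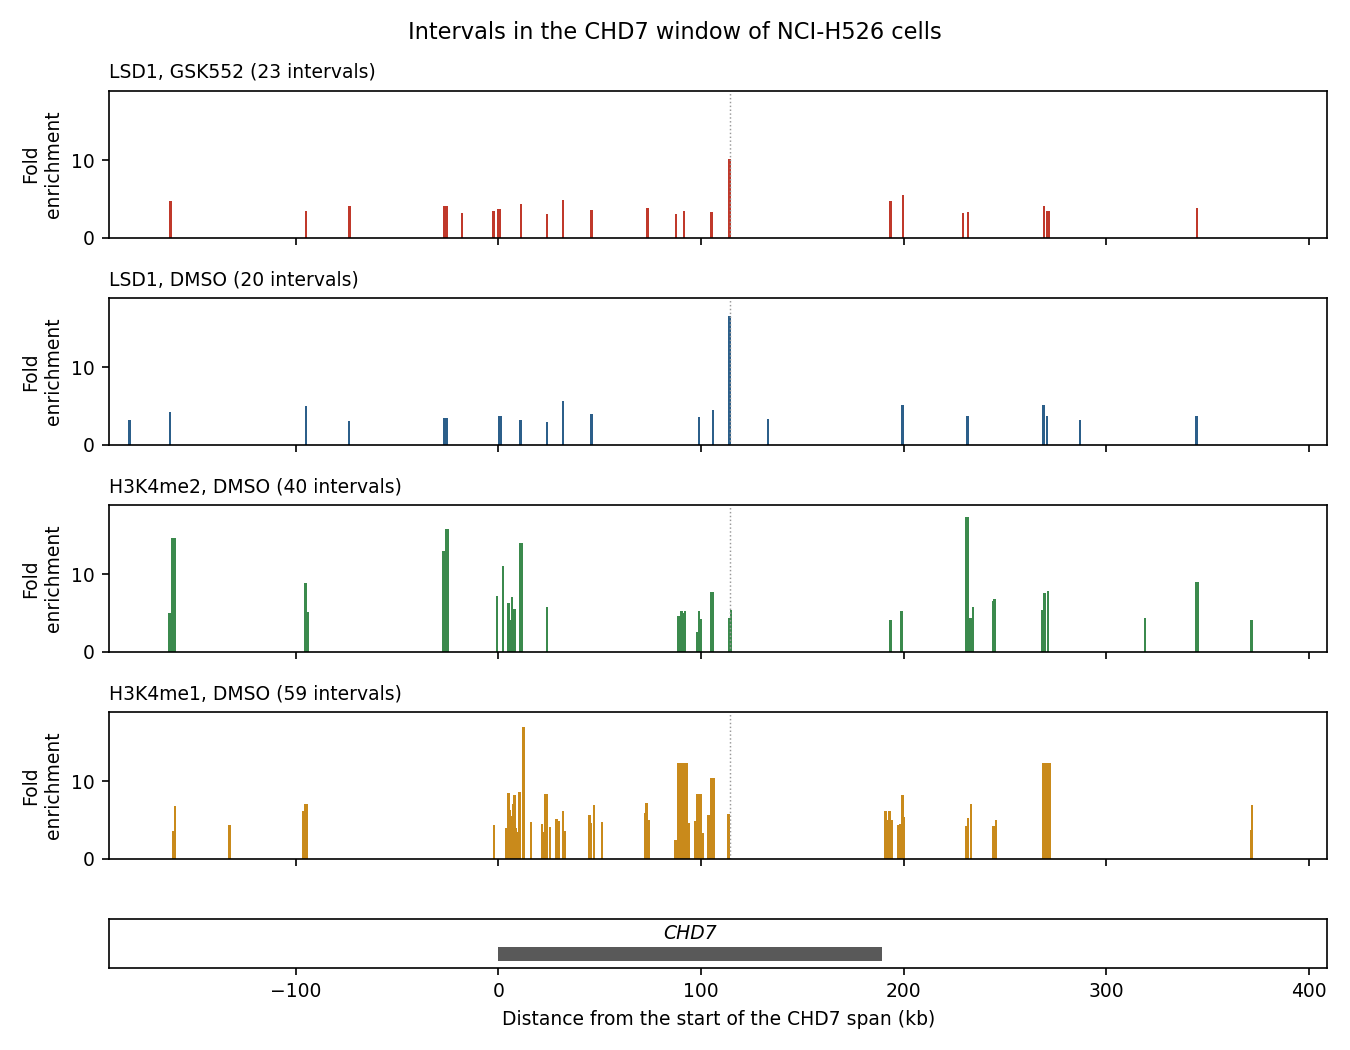
Fold enrichment (vertical axis) of every interval in the window against distance from the start of the CHD7 span in kb (horizontal axis), with 1 panel for each list and the CHD7 span as a grey bar. The dotted line marks the strongest LSD1 site, where the LSD1 fold was 10.1 with GSK552 and 16.6 with DMSO; the narrowest intervals are drawn wider than to scale so that they can be seen.

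The strongest LSD1 site lay inside CHD7, 114 kb past its start and 74.8 kb before its end. With GSK552 the peak was at chr8:61705097-61705793, where enrichment was 10.1-fold and the −log10 q was 33.7. With DMSO it was at chr8:61704927-61705831, with a fold of 16.6 and a −log10 q of 42.9. Fold enrichment is the authors' value for a peak over the background that the peak caller modelled. The site ranked 7 by score in the GSK552 list, a ranking that did not enter the choice of the gene, and 1 in the DMSO list. By fold it ranked 64 with GSK552 and 1 with DMSO. Just outside the rule, the DMSO peak of rank 2, at chr21:43540144-43540917, had a score of 393, against 428 at the CHD7 site. The GSK552 peak was narrower, at 697 bp against 905 bp with DMSO, and lay wholly inside the DMSO peak.

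No other LSD1 peak of the window came near this strength. The other 22 GSK552 peaks had folds of 3.09 to 5.47 with a median of 3.64, and the other 19 DMSO peaks 3.01 to 5.65 with a median of 3.68. The fold at the strongest site was 1.85 times the next highest in the window with GSK552 and 2.94 times with DMSO. The median fold of the window was 3.71 with GSK552 and 3.69 with DMSO, beside 3.91 and 3.61 over the whole lists.

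At the strongest LSD1 site H3K4me2 was among the weaker intervals of the window, and H3K4me1 was near the middle of its ranking. The H3K4me2 interval there, chr8:61704999-61705834, had a fold of 4.39, which placed it at rank 33 of 40 by score in the window and at percentile 15.5 of the whole H3K4me2 list. A small second H3K4me2 interval, chr8:61706061-61706244, followed with a fold of 5.43. The H3K4me1 interval, chr8:61704319-61705814, had a fold of 5.77, above the window's median of 5.21, with rank 24 of 59 in the window and percentile 74.8 of its list. Of the 16 LSD1 sites in the window with H3K4me2, 1 had a lower H3K4me2 fold than the strongest site, and of the 15 with H3K4me1, 3 had a lower H3K4me1 fold. Among the 100 highest-scoring GSK552 peaks of the genome, 49 overlapped H3K4me2, at a median percentile of 67.1 of that list, and 5 of the 49 lay lower than the CHD7 site. Among the 100 highest-scoring DMSO peaks 53 overlapped H3K4me2, at a median percentile of 57.8, and 2 of the 53 lay lower. For H3K4me1 the site was not low among strong peaks: of the 53 top GSK552 peaks with H3K4me1, 24 lay lower than the site, at a median percentile of 82.7. Of the 65 top DMSO peaks with H3K4me1, 32 lay lower. The site is itself among these top peaks, and the median percentile of the 65, 74.8, is its own value.

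The summits of the marks lay to the sides of the LSD1 peak's centre. The H3K4me2 summits nearest the centre of the DMSO peak were 324 bp before it and 783 bp after it. The 3 H3K4me1 summits of the interval lay 617, 450 and 357 bp before the centre, so all of them were on the side towards the start of CHD7. The H3K4me2 summit at 324 bp and the H3K4me1 summits at 450 and 357 bp were inside the DMSO peak, and none was inside the GSK552 peak. No summits are given for the LSD1 peaks, whose lists have the broad layout, so the centre of the interval stands in for the position of LSD1. Whether the marks flank LSD1 is thus not resolved.

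**Figure D2:**
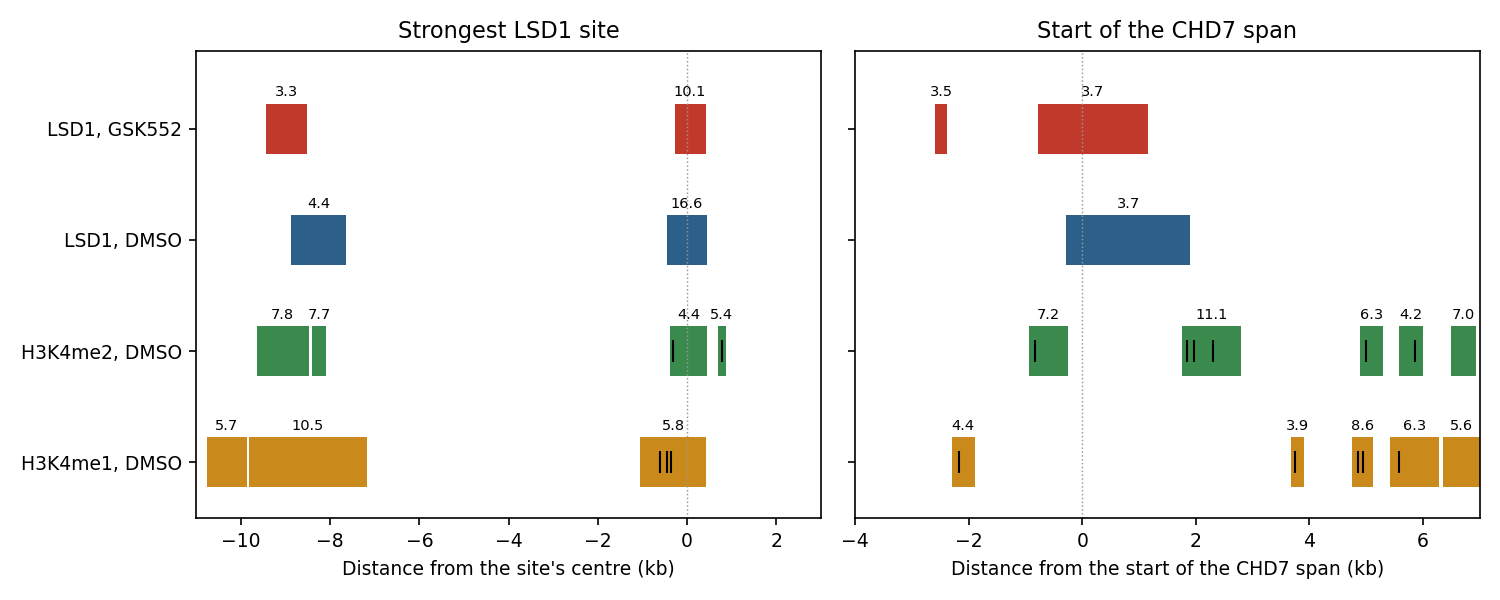
Intervals of the 4 lists around the strongest LSD1 site (left, kb from the centre of the DMSO peak) and around the start of the CHD7 span (right, kb from the start); the number over a bar is the fold enrichment and black ticks on the histone bars are summits within 6 kb of the zero point. At the strongest site LSD1 has folds of 10.1 with GSK552 and 16.6 with DMSO, and the marks have 4.39 and 5.77. LSD1 folds are averaged over a broad peak and mark folds belong to the highest-scoring summit, so they are not on the same scale. At the gene's start the LSD1 peaks cover all or part of a stretch between H3K4me2 intervals.

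The site stood at the end of the marked part of the gene. The nearest LSD1 peaks on the side of the gene's start were 8.07 kb away with GSK552 (chr8:61695936-61696854, fold 3.28) and 7.19 kb away with DMSO (chr8:61696505-61697737, fold 4.45). This neighbouring site, 106 kb past the start of CHD7, lay on stronger marks than the strongest site did. Its H3K4me2 intervals, chr8:61695733-61696902 and chr8:61696979-61697296, had folds of 7.78 and 7.69. Its H3K4me1 interval, chr8:61695564-61698197, had a fold of 10.5 over 2634 bp and was preceded by another at chr8:61694622-61695509 with a fold of 5.73.

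Past the strongest site CHD7 was almost without intervals. From the site to the end of the span, 74.8 kb, there were 0 LSD1 peaks with GSK552 and 1 with DMSO, chr8:61724103-61724366, with a fold of 3.37 and a −log10 q of 1.43. The only histone interval in that stretch was the small H3K4me2 interval directly after the site, and there was no H3K4me1 interval. The stretch from chr8:61706245 to chr8:61781971, 75.7 kb, was the longest in the window with neither mark. Windows of 600 kb with any interval had medians of 9 LSD1 peaks with GSK552, 8 with DMSO, 14 H3K4me2 and 15 H3K4me1 intervals. A stretch of this length with few intervals is thus not shown to be unusual. In the 114 kb from the start to the site, H3K4me1 intervals covered 26.1% of the sequence in 35 intervals and H3K4me2 9.85% in 18 intervals. LSD1 peaks there numbered 9 with GSK552 and 7 with DMSO and covered 5.36% and 4.82%.

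At the start of CHD7, LSD1 had wide peaks of low fold that contained the start itself. The GSK552 peak, chr8:61590538-61592480, was 1943 bp wide with a fold of 3.71 and a −log10 q of 2.36. The DMSO peak, chr8:61591040-61593217, was 2178 bp wide with a fold of 3.69 and a −log10 q of 1.96. By width these peaks were at percentiles 97.5 and 98 of their lists, and by score at 35.6 and 49.9. LSD1 at the gene's start was thus wide and of middle or lower rank, while the strongest site inside the gene was narrower with a far higher fold. The caller averages fold and p-value over a broad peak, so wide and narrow peaks are not directly comparable in strength.

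H3K4me2 lay on either side of the start and left a stretch between that LSD1 covered in part with GSK552 and whole with DMSO. The interval before the start, chr8:61590383-61591082, had a fold of 7.23, and the interval after it, chr8:61593074-61594122, had a fold of 11.1. The stretch of 1991 bp between them was covered by the GSK552 peak over 1398 bp and by the DMSO peak over its whole 1991 bp. H3K4me1 was absent from it. The nearest H3K4me1 intervals were 1.89 kb before the start (chr8:61589022-61589437, fold 4.40) and 3.67 kb after it (chr8:61594995-61595222, fold 3.93). A separate GSK552 peak, chr8:61588738-61588942 with a fold of 3.46, lay 2.38 kb before the start. Apart from its peak that contains the start, the DMSO list had none in the 24.9 kb before the start.

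The window had 23 gaps of up to 2.5 kb between neighbouring H3K4me2 intervals, and LSD1 reached into 6 of them with GSK552 and 6 with DMSO. Over all 44813 such gaps the shares with LSD1 were 33.8% with GSK552 and 26.9% with DMSO. H3K4me1 was in 18 of the 23, and in 51.4% of all such gaps. There were 3 with LSD1 and no H3K4me1, a combination found in 22.7% of all such gaps, and LSD1 of both libraries was in each of the 3. They were the gap at the start of CHD7, chr8:61429355-61429741 (387 bp) and chr8:61564798-61564947 (150 bp). LSD1 covered the last 2 of these gaps whole in both libraries. These gaps were singled out after their values were seen.

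In the first part of CHD7, some of the strongest marks of the window lay at and beside an LSD1 site whose fold differed between the libraries. The site 11 kb past the start had LSD1 peaks at chr8:61602261-61602701 with GSK552 (fold 4.40) and chr8:61601883-61602425 with DMSO (fold 3.26), at percentiles 83.1 and 23.9 of their lists by score. These peaks were offset and overlapped only in part. The site lay on an H3K4me2 interval of 1982 bp, chr8:61601679-61603660, with a fold of 14.1, and on H3K4me1 with a fold of 8.65. The strongest H3K4me1 interval of the window, chr8:61602754-61604269 with a fold of 17.0, began directly after it and overlapped no LSD1 peak of either library.

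The second LSD1 site of the gene by DMSO score lay 31.9 kb past the start and had H3K4me1 without H3K4me2. Its peaks were chr8:61622887-61623379 with GSK552 (fold 4.90, −log10 q 7.09) and chr8:61622888-61623466 with DMSO (fold 5.65, −log10 q 6.96). Its H3K4me1 fold was 6.17. The site 46.0 kb past the start was alike in marks, with H3K4me1 at a fold of 4.63, and had LSD1 folds of 3.57 with GSK552 and 4.04 with DMSO (DMSO peak chr8:61637026-61637614). At 24.0 kb a site with both marks had LSD1 folds of only 3.09 with GSK552 and 3.01 with DMSO.

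Between 73.7 and 98.9 kb past the start, each LSD1 site was found in only 1 of the libraries. With GSK552 only there were 3 sites, at 73.7, 87.6 and 91.5 kb, with folds of 3.90, 3.11 and 3.48. The first of these, chr8:61664915-61665062, overlapped neither mark and lay in the gap between H3K4me1 intervals at 73.2 and 74.2 kb. It began directly after the first of these intervals, chr8:61664085-61664907 with a fold of 7.17. The site at 91.5 kb lay on the widest H3K4me1 interval of the window, chr8:61679351-61684965, which spans 5615 bp with 15 summits and a fold of 12.3. With DMSO only there was 1 site, at 98.9 kb (chr8:61690161-61690313, fold 3.60), on an H3K4me1 interval of 2931 bp with a fold of 8.42, chr8:61688819-61691749. The −log10 q of the GSK552 peaks was 4.99 at 73.7 kb, percentile 80.8 of its list by score, 1.51 at 87.6 kb and 2.42 at 91.5 kb. That of the DMSO peak was 2.01, at percentile 53.9. A peak missing from a list is not shown to be absent from the cells, since the depth of the libraries is unknown here.

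**Figure D3:**
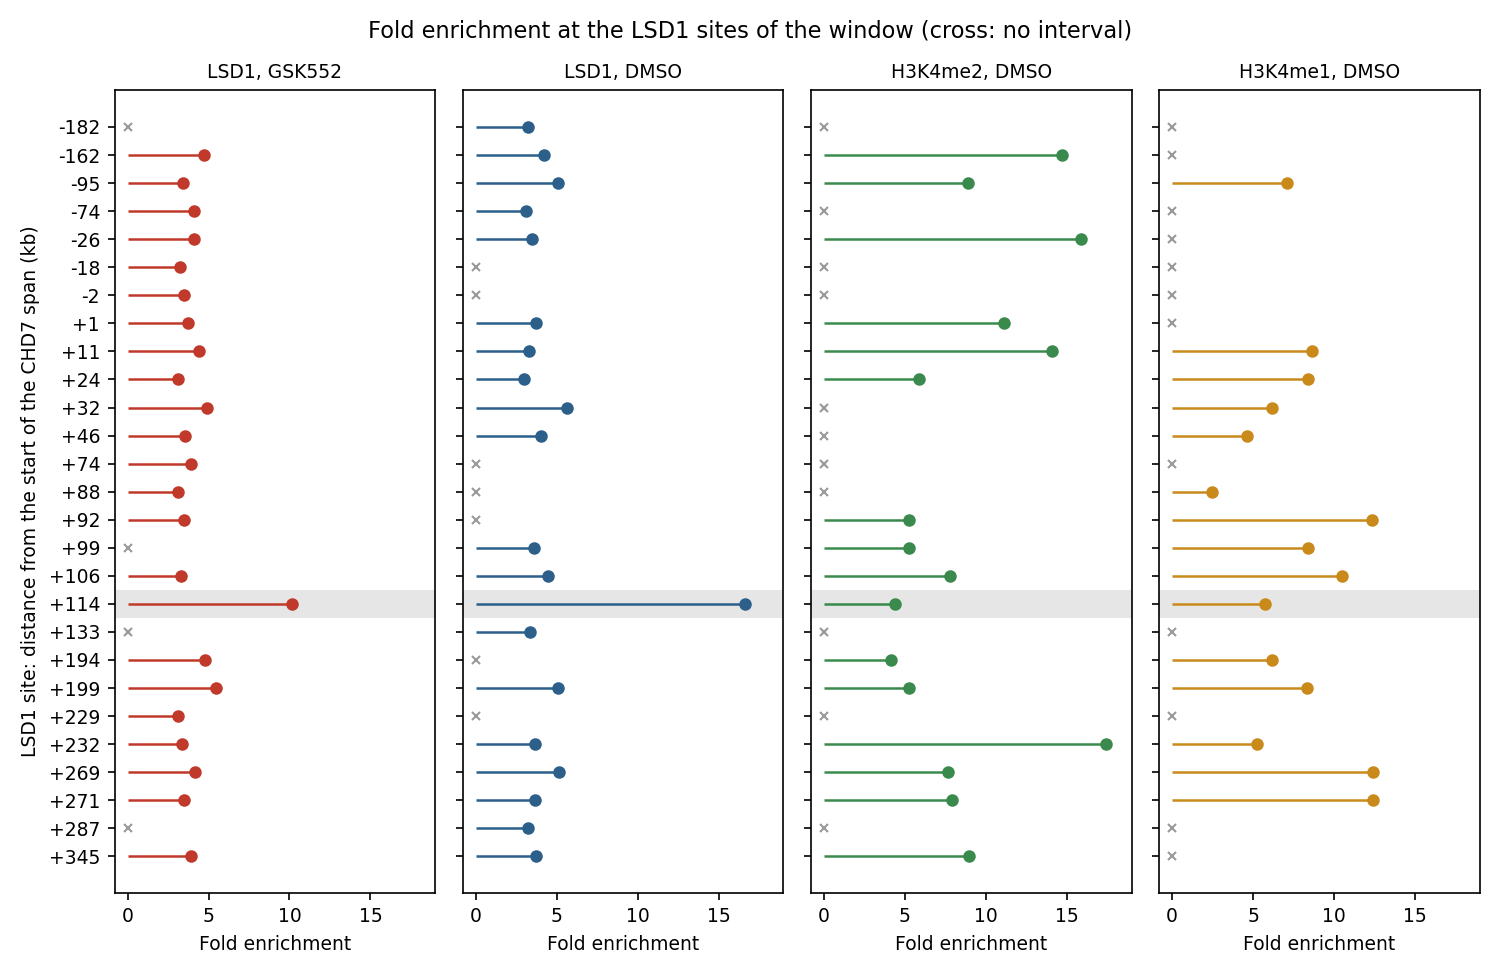
Fold enrichment (horizontal axes) at each of the 27 LSD1 sites of the window, listed from top to bottom by distance in kb from the start of the CHD7 span; a cross marks a site with no interval of that list and the shaded row is the strongest site. LSD1 is highest in the shaded row, with 10.1 with GSK552 and 16.6 with DMSO, whereas the H3K4me2 fold there is 4.39. The highest H3K4me2 fold, 17.4, stands at an LSD1 site with folds of 3.34 and 3.67. Folds of LSD1 and of the marks are different measures and compare only within a list.

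Outside the gene, the 3 highest-scoring H3K4me2 intervals had LSD1 peaks with folds of 3.34 to 4.75 with GSK552 and 3.48 to 4.20 with DMSO. The highest-scoring H3K4me2 interval, chr8:61564948-61566839, had a fold of 15.9 and percentile 98.8 of its list. It lay 25.4 kb before CHD7, and its neighbour chr8:61563402-61564797 had a fold of 13.0. LSD1 covered most of chr8:61564948-61566839 with the widest LSD1 peaks of the window. They were chr8:61564223-61566658 with GSK552 (2436 bp, fold 4.10) and chr8:61564196-61566426 with DMSO (2231 bp, fold 3.48), folds averaged over these widths. H3K4me1 was absent there. The H3K4me2 interval with the highest fold, 17.4, was chr8:61821521-61823680, 231 kb past the start of CHD7, and its LSD1 folds were 3.34 with GSK552 and 3.67 with DMSO. The widest H3K4me2 interval, chr8:61429742-61432465, had 2724 bp and a fold of 14.7. LSD1 reached only its lower end, at chr8:61428782-61430103 with GSK552 (fold 4.75) and chr8:61428837-61429862 with DMSO (fold 4.20). LSD1 overlapped 4 of the 5 highest-scoring H3K4me2 intervals of the window with GSK552 and 5 of 5 with DMSO. Short overlaps count here, as where the DMSO peak at the start of CHD7 reached only the lower end of chr8:61593074-61594122. Of all 10729 H3K4me2 intervals that scored at least as high as the lowest of these 5, LSD1 overlapped 72.0% with GSK552 and 59.6% with DMSO. Of the 5 highest-scoring H3K4me1 intervals, LSD1 overlapped 3 with each, and over the 5265 that scored at least as high the shares were 76.0% with GSK552 and 72.2% with DMSO.

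Several LSD1 sites after the gene lay on both marks, among them the site with the highest fold there in each library. At 199 kb past the start the peaks were chr8:61790679-61791162 with GSK552 (fold 5.47) and chr8:61790114-61791107 with DMSO (fold 5.10). This was the second-highest GSK552 score of the window, and the marks there had folds of 5.28 for H3K4me2 and 8.31 for H3K4me1. At 194 kb a narrow peak, chr8:61784782-61784962, had a fold of 4.80 with GSK552 and was not in the DMSO list. Near 270 kb a pair of shared sites stood on a single H3K4me1 interval of 4378 bp, chr8:61859529-61863906, with 15 summits and a fold of 12.4. The first of the pair was chr8:61860143-61860746 with GSK552 (fold 4.14) and chr8:61859934-61860543 with DMSO (fold 5.13). The other was chr8:61861454-61863264 with GSK552 (fold 3.51) and chr8:61861273-61862542 with DMSO (fold 3.68).

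Other shared sites on the flanks differed in their marks. At 95 kb before the start the peaks were chr8:61496037-61496568 with GSK552 (fold 3.45) and chr8:61496107-61496739 with DMSO (fold 5.06), on both marks. At 345 kb past the start, chr8:61935293-61936406 with GSK552 (fold 3.90) and chr8:61935352-61936310 with DMSO (fold 3.74) lay on H3K4me2 with a fold of 8.96 and no H3K4me1. The site 73.5 kb before the start was the only shared site with neither mark, with folds of 4.12 with GSK552 (chr8:61517577-61517993) and 3.10 with DMSO. The DMSO-only sites outside the gene, at 182 kb before the start and at 287 kb past it, had folds of 3.25 each and neither mark.

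Of the 27 LSD1 sites of the window 12 had both marks, 4 H3K4me2 only, 3 H3K4me1 only and 8 neither. Genome shares are given below for sites with neither mark, and not for the separate classes of marked sites. Among the 16 shared sites, 1 had neither mark, against 4 of the 7 GSK552-only and 3 of the 4 DMSO-only sites. Over the genome 26.4% of shared, 49.9% of GSK552-only and 59.6% of DMSO-only sites had neither mark. H3K4me2 was overlapped by 15 of 23 GSK552 peaks (65.2%, 44.9 to 81.2%, with 52.9% over the whole list) and 14 of 20 DMSO peaks (70.0%, 48.1 to 85.5%, with 50.4%). H3K4me1 was overlapped by 14 of 23 GSK552 peaks (60.9%, 40.8 to 77.8%, with 39.5% over the whole list) and 12 of 20 DMSO peaks (60%, 38.7 to 78.1%, with 41.5%). The value for the whole list lay inside the window's interval in 3 of these comparisons and just below it for H3K4me1 with GSK552.

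Seen from the marks, LSD1 with GSK552 overlapped 18 of the 40 H3K4me2 intervals (45%, with 40.8% over the whole list), and LSD1 with DMSO overlapped 19 (47.5%, with 35.4%). LSD1 with GSK552 overlapped 14 of the 59 H3K4me1 intervals (23.7%, with 23.8% over the list), and LSD1 with DMSO overlapped 12 (20.3%, with 23.7%). H3K4me1 was present at 30 of 40 H3K4me2 intervals (75.0%, with 63.1% over the list), and H3K4me2 at 24 of 59 H3K4me1 intervals (40.7%, with 47.4%). All of these whole-list values lay inside the 95% intervals of the window.

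The largest gap between the LSD1 folds of the libraries in the window was at the strongest site. The fold was lower with GSK552 than with DMSO at 8 of 16 shared sites and higher at the other 8, while 34.0% of the 28012 shared sites of the genome had a lower fold with GSK552. The ratio of the GSK552 fold to the DMSO fold was taken at each shared site. Its median was 0.980 in the window and 1.08 over all shared sites. The ratios ran from 0.610 at the strongest site to 1.35 at the site 11 kb past the start. The next lowest were 0.681 at the site 94.9 kb before the start and 0.738 at the site 106 kb past it. At the sites 11 kb and 106 kb past the start, the peaks of the libraries overlapped over less than 50% of either peak. The ratios there thus compare partly different stretches. With a reciprocal overlap of 50%, 12 of the 23 GSK552 peaks were overlapped by a DMSO peak, against 16 with 1 bp.

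**Figure D4:**
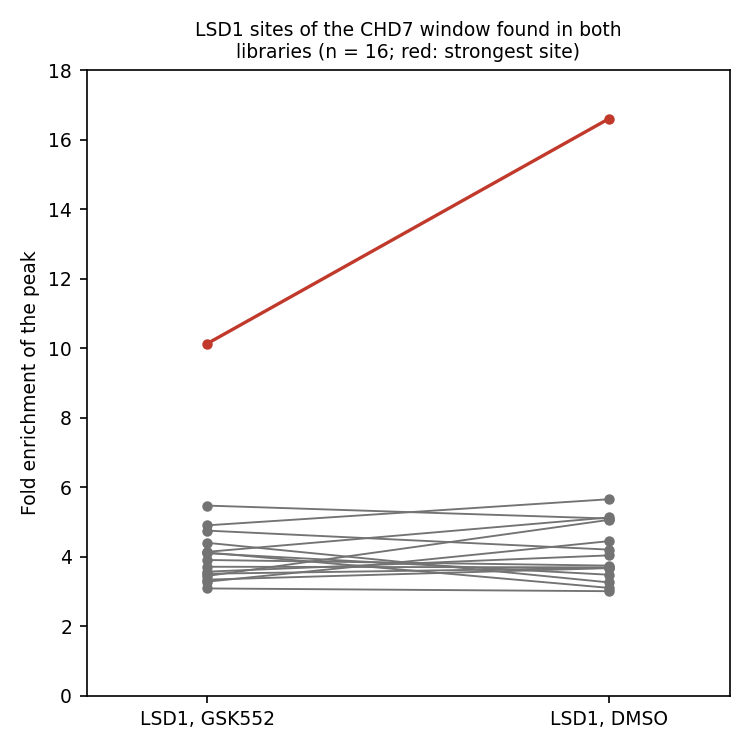
Fold enrichment of the LSD1 peak (vertical axis) with GSK552 (left) and with DMSO (right) at each of the 16 shared sites of the window; a line joins the peaks of 1 site, and each group is 1 library. The strongest site, in red, has 10.1 with GSK552 and 16.6 with DMSO, and the other 15 sites lie between 3.01 and 5.65.

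The ratio of 0.610 at the strongest site was low among shared sites as a whole and less so among strong ones. Of all shared sites 0.482% had a lower ratio. Sites with a high DMSO score tended to have lower ratios, from a median of 1.19 in the lowest of 10 deciles of that score to 0.946 in the highest. Among the 100 shared sites with the highest DMSO scores the median was 0.801, 84 had a ratio below 1, and 13 had a lower ratio than the CHD7 site. The deciles and the divisor of the ratio come from the same DMSO library, so the trend is not a test of the inhibitor. The site was picked for its DMSO score, so its lower fold with GSK552 is not such a test either.

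**Figure D5:**
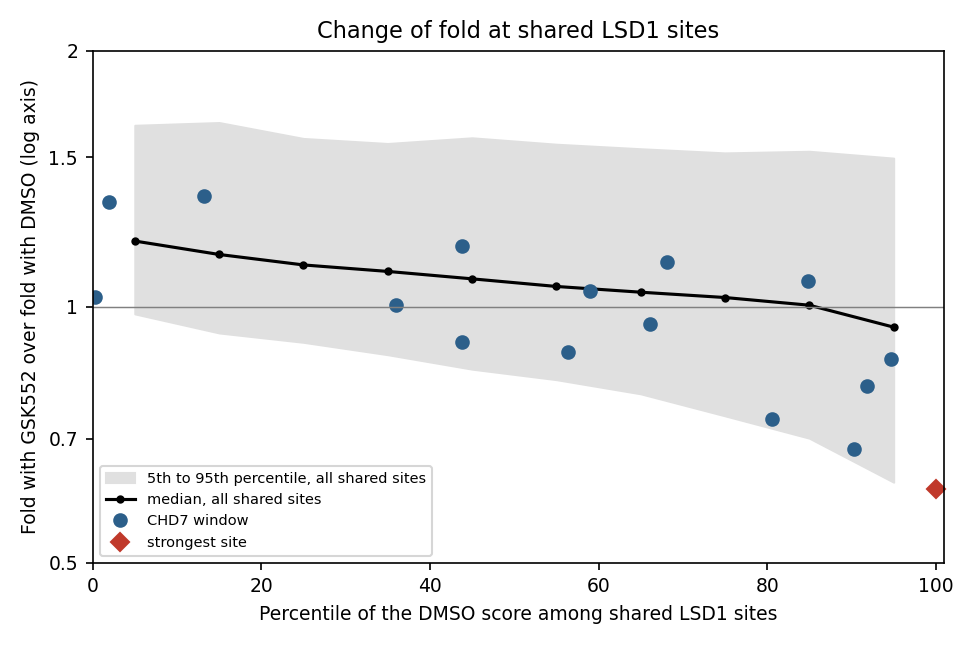
Fold with GSK552 over fold with DMSO (vertical log axis) against the percentile of the DMSO score among all 28012 shared LSD1 sites (horizontal axis); the line is the median of each decile, the band runs from the 5th to the 95th percentile, and points are the 16 shared sites of the window. The median line falls to 0.946 in the highest decile, and the strongest site lies at 0.610, below the band. Both axes use the DMSO library, so the fall is not a test of the inhibitor.

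The background modelled by the peak caller also differed between the libraries at the strongest site. A peak's fold and p-value together imply a background, given here relative to the median of its list. At the strongest site it was 2.29 times the list median with GSK552 and 1.35 times with DMSO. The ratio of these, 1.70, was exceeded at 2.22% of the 26307 shared sites with a value in both lists, where the median was 0.875. The implied pileup of reads at the site, in units of the list's median background, was 28.2 with GSK552 and 34.0 with DMSO, a ratio of 0.828. Among the 100 sites above, the median of this ratio was 0.691 and 79 had a lower one. The site thus lay below the median of these 100 sites in its ratio of folds and above it in its ratio of implied pileups. The part of the background in the lower fold was not tested. For broad peaks these values are approximate, because the caller averages fold and p-value over the peak.

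The implied background of the window was somewhat above that of the lists. Its median over the window's intervals was 1.28 times the list median for LSD1 with GSK552, 1.25 for LSD1 with DMSO, 1.19 for H3K4me2 and 1.40 for H3K4me1.

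The window was richer in intervals than most of the genome. Among 4636 windows of the same length that held any interval, it had more LSD1 peaks than 90.4% with GSK552 and 89.1% with DMSO, more H3K4me2 intervals than 90.8% and more H3K4me1 intervals than 95%. The medians of these windows were 9 LSD1 peaks with GSK552, 8 with DMSO, 14 H3K4me2 intervals and 15 H3K4me1 intervals. H3K4me1 covered 49.0 kb of the CHD7 window, of which 31.2 kb lay in the gene's span, and H3K4me2 covered 31.6 kb, of which 12.2 kb lay in the span. LSD1 peaks covered 17.3 kb with GSK552 and 15.6 kb with DMSO.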

How the data were processed

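ChIP-seq peak lists of 4 libraries were analysed. Per the submitters' processing notes, the tools were BWA, Picard and MACS2 2.0 and the build hg19. Which control library was used, how duplicates were treated and how deeply each library was read are unknown here. The files have no header and were read in the MACS2 layouts. The deposited score is 10 times the deposited −log10 q. The deposited fold enrichment is a ratio over the caller's background, and −log10 p and −log10 q were also deposited per interval. The LSD1 lists have the broad layout and reach a −log10 q of 1.00. The histone lists have the narrow layout, with a row for each summit, and reach 2.01. Folds of LSD1 and of the marks are thus not on the same scale.

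Rows with the same ends were joined into 1 interval with the values of its highest-scoring row. Overlap meant at least 1 bp. Tied scores share the better rank. The implied background solves for the Poisson p-value with a pseudocount of 1 and gave no value for 11.1% of GSK552 peaks. Overlap and background code was tested on simulated data. Python 3.11.15, SciPy 1.17.1, pandas 2.3.3 and matplotlib 3.10.9 were used. The gene, window and rules were chosen with earlier results of these data known. Named were the 10 highest-scoring LSD1 peaks of each list in the window, the 5 highest-scoring and 2 widest intervals of each mark, all intervals within 10 kb of the strongest site and those nearest the gene's start. Other sites named, such as those found in 1 library only, were picked with their values known. A planned search for related CHD genes needs an hg19 annotation and was not run. Promoter and protein sequences are not reported here.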

Additional observations from a re-analysis of the deposited data

How the results depend on the processing

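No paired analysis was possible because the LSD1 groups hold a single library each. Over all alternatives 33 of 52 values stayed within the counting interval or within 1.5 times the count, and 19 moved; the cause of a move was not tested, apart from the smaller region or list that a setting leaves. With a reciprocal overlap of 50%, LSD1 peaks on H3K4me2 were 30.4% with GSK552 and 25.0% with DMSO, and on H3K4me1 8.70% and 20%, so the shares on marks depend on how overlap is defined. In the gene span alone there were 10 GSK552 and 9 DMSO LSD1 peaks, 20 H3K4me2 and 36 H3K4me1 intervals, and 80% of GSK552 peaks lay on H3K4me1. When the upper 50% of each list by score was kept, 12 GSK552 peaks, 17 H3K4me2 and 37 H3K4me1 intervals were left, and 57.1% of DMSO peaks were overlapped by GSK552 peaks. At a −log10 q of at least 2, 13 DMSO LSD1 peaks were left. By width the strongest site ranked 12950 with GSK552 and 8994 with DMSO, and by fold it ranked 64 with GSK552. By bases covered, the window lay at percentile 94.5 for GSK552 and 92.7 for DMSO LSD1 peaks. Shifted windows and peak centres moved none of their 10 values.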

Other observations

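Values of H3K4me2 intervals recurred in the window: the 40 intervals had 33 distinct pairs of fold and −log10 q, and 4 intervals had the same fold of 5.28. Each of the 23 GSK552 and 20 DMSO LSD1 peaks had a pair of values of its own. Order among H3K4me2 intervals with such a fold cannot be read from these values.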
